A study of Mus musculus with 4 samples.

Results

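The microRNA cluster of the imprinted Dlk1-Dio3 domain was followed in small RNA of mouse sperm. Its members were the miRNA hairpins whose number was one of 39 numbers that belong to this locus, with any letter or copy suffix, and they were chosen by name and not by level. The rule found 40 hairpins among 605 miRNA hairpins and 2150 features of the 5 small RNA classes (miRNA, tRNA, piRNA, rRNA and repeats), and 35 of the 40 were listed in both deposited tables. No hairpin mir-412 or mir-544 was analysed here. The study sequenced small RNA from spermatozoa of the cauda epididymis, where mature sperm are stored, of adult C57BL/6 mice. It compared an original cross with an extra cross to wildtype, with 2 mice and 2 libraries per cross, and its title sets sperm susceptible to epigenetic silencing of LoxP, the target sequence of Cre recombinase, against sperm that are not. The labels name no allele for either cross and do not say which cross was susceptible. All 4 libraries had the same strain, age and cell type. Each of the 2 tables held 1 library of each cross, and the libraries are named here by the replicate number of their table.

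MicroRNAs are cut from hairpin precursors, and the seed, bases 2 to 8 of the mature strand, pairs with target messenger RNAs. The Dlk1-Dio3 domain carries paternally expressed protein genes (Dlk1, a Notch-related surface protein, Rtl1, a retrotransposon-derived gene of the placenta, and Dio3, a thyroid hormone deiodinase) and maternally expressed noncoding RNAs (Meg3, Rian and Mirg). Its microRNAs are processed from the maternal noncoding transcripts. The control region of the domain is methylated on the allele that sperm transmits. In adult tissue these microRNAs are best known from brain, muscle and mesenchymal cells.

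All 40 hairpins had a position in the RefSeq table for GRCm38.p6, the assembly called mm10 in the submitters' processing notes. They lay on chromosome 12 between 109580233 and 109743795, a span of 163.6 kb, and 39 were on the plus strand. In the GENCODE annotation of GRCm38, 5 members (mir-431, mir-433, mir-127, mir-434 and mir-136) were antisense to an exon of Rtl1 (109589193 to 109600330, minus strand). Members mir-341 and mir-370 lay in introns of Rian. Of the 10 members inside Mirg, 6 overlapped an exon, mir-410 and mir-369 among them, and 4 lay in an intron, mir-541 among them. The remaining 23, which included mir-411, mir-381 and mir-300, overlapped no GENCODE gene of another kind than small RNA. RefSeq gives Rtl1 a longer span, 109564900 to 109604418, which also covers mir-493, mir-337, mir-540 and mir-665. These are called the members between Meg3 and Rtl1 below, by the GENCODE span.

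The table gives a value per hairpin and not per arm, so both arms of the most abundant hairpins are shown, in RefSeq's sequence and with the seed in capitals. The 3 hairpins mir-434, mir-127 and mir-411 held most reads of the cluster, and mir-136 was the tested hairpin whose extra-cross value was the higher one in each table.
miR-434-5p: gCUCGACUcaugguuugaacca
miR-434-3p: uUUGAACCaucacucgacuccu
miR-127-5p: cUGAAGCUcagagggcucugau
miR-127-3p: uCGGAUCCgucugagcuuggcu
miR-411-5p: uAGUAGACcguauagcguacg
miR-411-3p: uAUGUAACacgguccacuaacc
miR-136-5p: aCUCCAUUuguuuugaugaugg
miR-136-3p: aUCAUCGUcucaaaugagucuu

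The RefSeq table held 76 mature sequences of the 40 hairpins, with 72 different seeds, so the cluster is mostly a set of distinct seeds. Only 4 seeds occurred in 2 mature members each, and the sets with an abundant member were miR-411-3p with miR-379-3p and miR-410-5p with miR-494-5p. The sequences of miR-411-3p and miR-379-3p were equal at 20 of 22 bases and differed as C10U and C22U, with positions counted from the 5′ end of miR-411-3p. A second close pair, miR-381-3p and miR-300-3p, was equal at 19 of 22 bases, but A4G lies within the seed, so that their seeds differ; the other differences, G21U and U22C, lie outside it. The strands that share a seed or most of their bases with another member are shown for comparison.
miR-379-3p: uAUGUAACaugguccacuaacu
miR-410-5p: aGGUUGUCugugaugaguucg
miR-494-5p: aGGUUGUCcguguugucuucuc
miR-381-3p: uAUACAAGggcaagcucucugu
miR-300-3p: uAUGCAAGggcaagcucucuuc

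Values are RPM, read numbers that the authors scaled to a common library total. The commonest miRNA value of a library, read as 1 read, was 1.58 and 0.561 RPM in original-cross replicates 1 and 2 and 0.642 and 0.238 RPM in extra-cross replicates 1 and 2. Original-cross replicate 1 was therefore the shallowest library. Of the 137 member values above 0, 131 (95.6%) were whole reads within 0.02 reads. The cluster as a whole stood for 1893, 3042, 3240 and 5522 reads, in the same order of libraries. MicroRNAs of spermatogenic cells were present in every library: 13 of 14 had reads in at least 1 library, mir-34c led with 707 to 1828 RPM, and the list summed to 883 to 2248 RPM.

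The cluster was detected in all 4 libraries as a minor part of the microRNAs. Its sums were 2990.4 and 1707 RPM (original cross) against 2079.6 and 1313 RPM (extra cross). That was 1.08% and 1.45% of the miRNA class in the original cross and 0.471% and 0.935% in the extra cross. Reads were found for 29 and 36 of the 40 hairpins in the original cross and for 34 and 38 in the extra cross, with the fewest in the shallowest library, and 27 hairpins had reads in all 4.

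A few hairpins held nearly all of the signal. The 3 most abundant, mir-434, mir-127 and mir-411, made up 81.2% and 76.6% of the cluster in the original cross and 78.5% and 73.9% in the extra cross. Mean levels ran from 691 RPM for mir-434 to 0.0297 RPM for mir-299b. By summed RPM the 5 hairpins antisense to Rtl1 gave 64.3% to 69.9% of the cluster, although they are few. Hairpins from mir-379 to mir-410, the downstream group with 29 members, gave 28.8% to 35.1%. The 4 members between Meg3 and Rtl1 gave 0.432% to 0.766%, and mir-341 with mir-370 gave 0.493% to 0.869%. Neighbours on the same stretch differed widely: mir-127 and mir-434 stood near mir-433, whose mean was 3.26 RPM, and mir-411 (mean 317 RPM) lay beside mir-379 (mean 4.57 RPM), which shares its 3p seed.

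**Figure D1:**
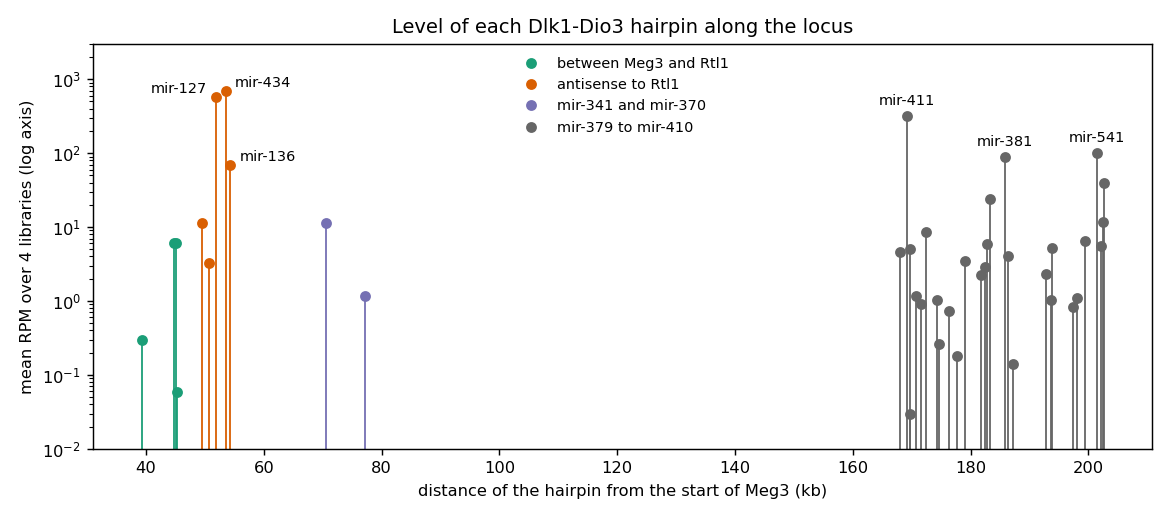
Mean RPM over the 4 libraries (log axis) of each of the 40 hairpins against its distance in kb from the start of Meg3, coloured by position group. The tallest points are mir-434 and mir-127 in the group antisense to Rtl1 and mir-411, mir-541 and mir-381 in the downstream group.

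The comparison of the crosses asked whether these hairpins differed between sperm of the original and the extra cross. The test was limma on log2(RPM + 1) over the 760 small RNA features whose mean reached 10 RPM, 11 of them members. At a Benjamini-Hochberg adjusted p of 0.05, 0 of the 11 members passed, and 0 of all 760 features passed, a background of 0%. With the table (replicate number) as a further term, 171 of the 760 features passed, a background of 22.5%, and again 0 of the 11 members. The lowest adjusted p of a member in that limma fit was 0.062, for mir-127. Under the other limma alternatives with all 4 libraries, the lowest of these 11 members was 0.434, for mir-136 with median-ratio scaling. For mir-127 it was at least 0.686 there. At an unadjusted p below 0.05 there were 0 members and 112 features (14.7% of all). Adjusted p was 0.864 for mir-431 and 0.995 for the other 10 members. Fold changes are differences on this log2 scale, extra minus original cross, and understate those of low hairpins.

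Most tested hairpins nevertheless had the lower value in the extra-cross library, table by table. This held for 9 of 11 members, against 46.3% of all tested features and 20% of the 195 tested hairpins outside the cluster. The count depended on the scaling of the libraries. Under median-ratio scaling it was 5 of 11 members, against 28.8% of all tested features and 8.72% of the other hairpins. It stayed 9 of 11 after rescaling to the 5 classes, against 53.3% of all tested features and 25.6% of the other hairpins. With the miRNA class scaled on its own it was also 9 of 11, against 43.1% of the other hairpins. Fitted fold changes were below 0 for 9 of 11 members, for 6 of 11 under median-ratio scaling, for 11 of 11 with the miRNA class scaled on its own and for 4 of the 9 members tested without original-cross replicate 1. Of the remaining pair, mir-136 was higher in both tables, as were 19.9% of all tested features and 44.6% of the hairpins outside the cluster, and mir-341 went in different directions. The median log2 fold change of the 11 was -0.32, with -0.37 and -0.28 in the tables of replicates 1 and 2. Over the 195 other hairpins the median was 0.22, and over all 760 features it was -0.12. The median of the 11 was -0.0018 under median-ratio scaling and 0.0064 without original-cross replicate 1, which mixes the tables. These medians and counts are descriptions and carry no test. In RNA from a whole sperm preparation, fewer cells of a type and less RNA per cell cannot be told apart.

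**Figure D2:**
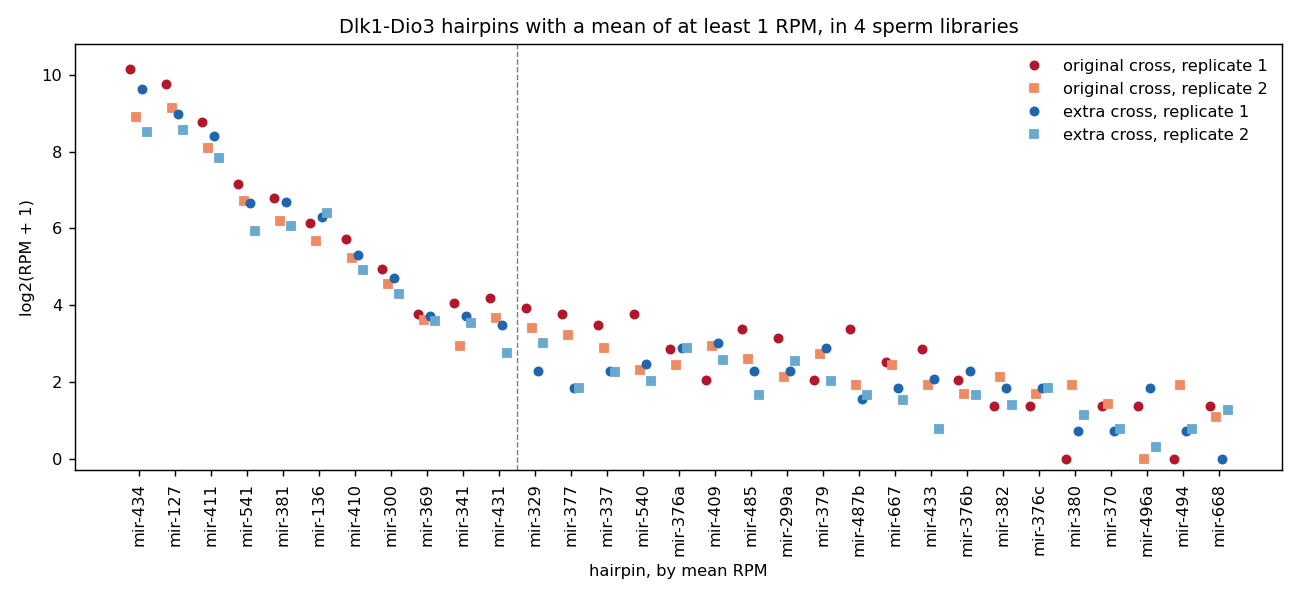
Values as log2(RPM + 1) of the 31 hairpins with a mean of at least 1 RPM, ordered by mean, with 1 point for each of the 4 libraries; hairpins left of the dashed line have a mean of at least 10 RPM and were tested. The original-cross replicate 1 library is the highest for mir-434 (1129.8 RPM), mir-127 (866 RPM) and mir-411 (432.96 RPM), and the libraries cross over among the low hairpins.

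Among the hairpins antisense to Rtl1, mir-127 was the abundant member with the extra cross lower and no overlap in deposited RPM. The antisense microRNAs of this stretch are known to direct cleavage of the Rtl1 transcript. Hairpin mir-127 (109592846 to 109592915) had 866 and 558 RPM (original cross) against 503 and 379.01 RPM (extra cross), which stand for 548, 995, 783 and 1594 reads. Both original-cross libraries were above both extra-cross libraries, as in 26.8% of all tested features and 5.13% of the tested hairpins outside the cluster. Under median-ratio scaling the crosses overlapped. The log2 fold change of mir-127 was -0.67 ± 0.55 (SE, n = 2 per cross), which did not pass the test.

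Hairpin mir-434 (109594506 to 109594599), the most abundant member on average, had 1129.8 and 476 RPM (original cross) against 794 and 365 RPM (extra cross). The extra-cross library was the lower in each table, but the crosses overlapped, since replicate 1 of the extra cross was above replicate 2 of the original cross. Its log2 fold change was -0.44 ± 0.72 (SE, n = 2 per cross). Among miRNA hairpins it ranked 29 and 35 in the original cross and 41 and 42 in the extra cross. As a share of that class it was nearly equal in the 2 original-cross libraries (0.410% and 0.405%) and lower in the extra cross (0.180% and 0.260%).

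The low hairpin mir-431 had 17.4 and 11.8 RPM (original cross) against 10.3 and 5.71 RPM (extra cross), with no overlap. These are only 11, 21, 16 and 24 reads. Its log2 fold change of -0.82 ± 0.54 (SE, n = 2 per cross) was the lowest of the 11. The last member of this stretch over 1 RPM but below the minimum for testing, mir-433, had 6.32 and 2.81 RPM against 3.21 and 0.713 RPM.

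Hairpin mir-136 (109595327 to 109595388) went the other way. It had 69.5 and 49.6 RPM (original cross) against 78.0 and 83.5 RPM (extra cross), so both extra-cross libraries were above both original-cross libraries, as in 4.47% of all tested features and 11.8% of the tested hairpins outside the cluster. Its log2 fold change was 0.45 ± 0.44 (SE, n = 2 per cross), or -0.0087 with the miRNA class scaled on its own. As a share of the miRNA class the crosses overlapped, with 0.0252% and 0.0423% in the original cross and 0.0177% and 0.0594% in the extra cross. Hairpin mir-3071 on the opposite strand overlaps mir-136 over 62 bases and had identical values in all 4 libraries, so reads of the pair cannot be told apart here. Values of the pair were not whole reads in 2 libraries (88.5 and 121.5 reads). Hairpins mir-337 and mir-3544, which overlap on opposite strands over 61 bases, likewise had identical values in all 4 libraries, but mir-299a and mir-299b did not.

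In the downstream group mir-411 (109710175 to 109710256) had 432.96 and 274 RPM (original cross) against 335 and 226 RPM (extra cross). It was lower in the extra cross of each table, and the crosses overlapped. Its log2 fold change was -0.32 ± 0.55 (SE, n = 2 per cross). Hairpin mir-541 (109742409 to 109742498), in an intron of Mirg, had 142.2 and 104 RPM against 101 and 60.2 RPM. Its crosses did not overlap in deposited RPM, though original-cross replicate 2 and extra-cross replicate 1 were close, and they overlapped under median-ratio scaling. The log2 fold change of mir-541 was -0.64 ± 0.50 (SE, n = 2 per cross).

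The pair mir-381 and mir-300, which have closely similar 3p strands, kept a similar proportion in the 4 libraries. Hairpin mir-381 had 110.6 and 71.8 RPM (original cross) against 103 and 66.1 RPM (extra cross). Hairpin mir-300 had 30.02 and 22.4 RPM against 25.0 and 18.5 RPM. The ratio of mir-300 to mir-381 was 0.271 and 0.313 in the original cross and 0.244 and 0.281 in the extra cross. Their log2 fold changes were -0.11 and -0.26 (0.21 and 0.052 under median-ratio scaling), and both sets of values overlapped between crosses.

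Near the end of the cluster, mir-410 had 52.1 and 36.5 RPM (original cross) against 38.5 and 29.0 RPM (extra cross), a log2 fold change of -0.37 ± 0.44 (SE, n = 2 per cross). Its neighbour mir-369 was nearly flat, at 12.6 and 11.2 RPM against 12.2 and 10.9 RPM, with a log2 fold change of -0.04 (0.26 under median-ratio scaling). In Rian, mir-341 had 15.8 and 6.73 RPM against 12.2 and 10.7 RPM; it was lower in the extra cross of the replicate 1 table and higher in that of the replicate 2 table. In deposited RPM, 3 of the 11 tested members (mir-127, mir-541 and mir-431) thus had both extra-cross libraries below both original-cross libraries. The same held for 26.8% of all tested features and 5.13% of the hairpins outside the cluster. With the median-ratio factors (1.04 for original-cross replicate 2 and 0.928 for extra-cross replicate 1), mir-127 and mir-541 overlapped between the crosses. Of the 3, only mir-431 kept its gap, on 11 to 24 reads. The background of such gaps was not counted under that scaling.

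**Figure D3:**
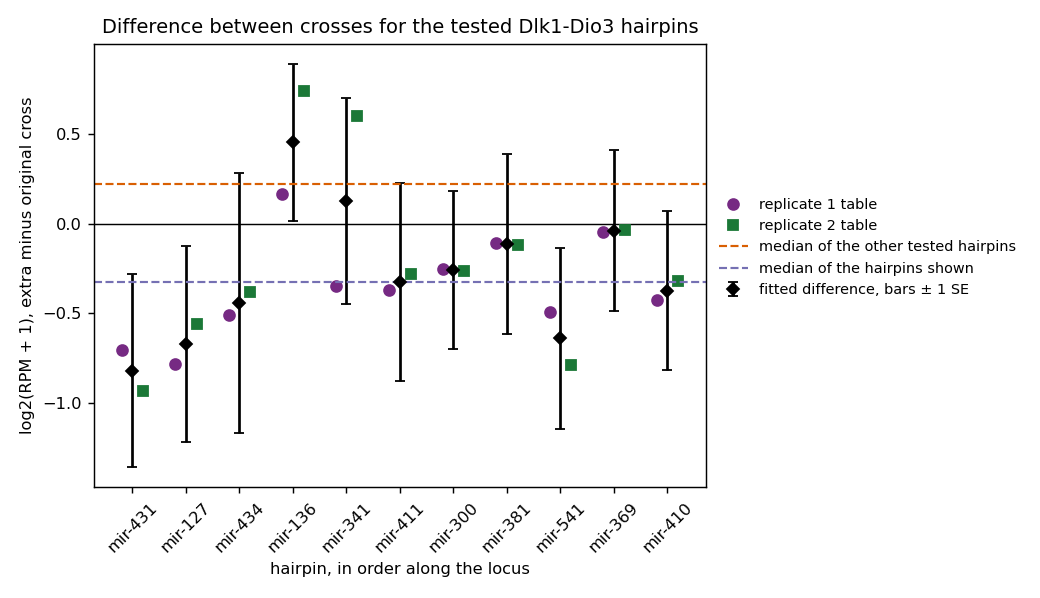
Difference in log2(RPM + 1), extra minus original cross, for the 11 tested hairpins in order along the locus, in each table (circles and squares) and as fitted (diamonds, bars ± 1 SE); dashed lines mark the median of the 11 (-0.32) and of the 195 other tested hairpins (0.22). Fitted values of 9 hairpins lie below 0, with mir-136 (0.45) and mir-341 (0.12) above it.

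A further 20 hairpins had a mean between 1 and 10 RPM and were not tested. Of these, 9 were lower in the extra cross of both tables, 3 were higher in both and 8 were mixed. Among the 117 hairpins of this level outside the cluster, 17.1% were lower in both tables and 25.6% were higher in both. The crosses did not overlap for 7 of the 20 with the extra cross lower and for 2 with it higher, against 12% and 13.7% of those 117. Most of their values stand for fewer than 20 reads, so the counting error is large. The clearest gap was at mir-377, in an exon of Mirg, with 12.6 and 8.42 RPM (original cross) against 2.57 and 2.62 RPM (extra cross), or 8, 15, 4 and 11 reads. Next in level, mir-329 had 14.2 and 9.54 RPM against 3.85 and 7.13 RPM. Hairpin mir-485 had 9.48 and 5.05 RPM against 3.85 and 2.14 RPM. All 3 had original-cross values above both extra-cross values.

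Of the members between Meg3 and Rtl1, mir-337 had 10.3 and 6.45 RPM (original cross) against 3.85 and 3.80 RPM (extra cross), and mir-540 had 12.6 and 3.93 RPM against 4.49 and 3.09 RPM. Both were lower in the extra cross of each table. Hairpins mir-487b (9.48 and 2.81 against 1.93 and 2.14 RPM), mir-667 (4.74 and 4.49 against 2.57 and 1.90 RPM) and mir-370 (1.58 and 1.68 against 0.642 and 0.713 RPM) also did not overlap, with the original cross higher. These gaps rest on 1 to 8 reads per original-cross library.

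The related hairpins mir-376a, mir-376b and mir-376c did not follow that direction as a set. Hairpin mir-376a had 6.32 and 4.49 RPM (original cross) against 6.42 and 6.42 RPM (extra cross). The copy mir-376c had 1.58 and 2.24 RPM against 2.57 and 2.62 RPM, and mir-376b had 3.16 and 2.24 RPM against 3.85 and 2.14 RPM. Hairpins mir-376a and mir-376c had both extra-cross libraries above both original-cross libraries, by margins below the value of 1 read in original-cross replicate 1.

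Other hairpins of this level were mixed between the tables. Hairpin mir-409 had 3.16 and 6.73 RPM against 7.06 and 4.99 RPM. Hairpin mir-379 had 3.16 and 5.61 RPM against 6.42 and 3.09 RPM. Hairpin mir-299a had 7.90 and 3.37 RPM against 3.85 and 4.87 RPM. Hairpins mir-382 (1.58 and 3.37 against 2.57 and 1.66 RPM), mir-380 (0 and 2.81 against 0.642 and 1.19 RPM), mir-494 (0 and 2.81 against 0.642 and 0.713 RPM) and mir-668 (1.58 and 1.12 against 0 and 1.43 RPM) rested on few reads in every library. Hairpin mir-496a, at 1.58 and 0 RPM against 2.57 and 0.238 RPM, was higher in the extra cross of both tables. The last 9 hairpins, mir-323, mir-154, mir-543, mir-493, mir-679, mir-495, mir-539, mir-665 and mir-299b, had means below 1 RPM, with a highest value of 2.14 RPM for mir-154 in extra-cross replicate 2.

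Summed over all 40 hairpins, the cluster was lower in the extra cross of both tables. Within a table, the sum was 0.695 times (replicate 1) and 0.769 times (replicate 2) the original-cross value. Over libraries it was 2348.5 ± 908 RPM (original cross) against 1696 ± 542 RPM (extra cross; SD, n = 2 each), and the libraries overlapped (two-sided exact permutation test, p = 0.667). The log2 ratio of these means was -0.47, and -0.0087 without original-cross replicate 1. As a share of the miRNA class it was 1.27% ± 0.262 in the original cross and 0.703% ± 0.328 in the extra cross (SD, n = 2 each). Those shares did not overlap, and the exact permutation p was 0.333, the smallest that 2 libraries against 2 allow. The share is independent of the scaling of a library, but it also moves with the rest of the class, which was higher in the extra cross of both tables (441544 and 140437 RPM, against 275809 and 117322 RPM). By share of the class, 9 of the 11 tested members were lower in the extra cross of both tables and 4 did not overlap, against 43.1% and 28.7% of the tested hairpins outside the cluster.

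Markers of other cells also differed between the libraries. The smooth muscle and stroma list had reads for 7 of 8 hairpins, and mir-1a-1 had no entry. Its sum held 3.13% and 5.37% of the miRNA class in the original cross and 0.776% and 3.63% in the extra cross. In that list 6 hairpins had the lower value in the extra-cross library, table by table. The other, mir-143, was mixed, with 1725.5 and 1867 RPM (original cross) against 856 and 2162 RPM (extra cross). The summed level of the list was 6299 to 8632 RPM (original cross) against 3427 to 5101 RPM (extra cross). Both sum and share count mir-199a-1 and mir-199a-2 separately. Their values were nearly equal in every library (2269.6 and 2268.02 RPM in original-cross replicate 1). The shares of this list overlapped between the crosses, and its summed levels did not. Epididymal epithelium hairpins (5 of 5 with reads) went the other way as a sum, with 1.59% and 1.75% in the original cross and 2.36% and 3.78% in the extra cross. That was 2055 to 4394 RPM against 5315 to 10409 RPM. Of this list 4 were higher in the extra cross of both tables, and mir-200b was slightly lower there in the replicate 2 table (438 against 448 RPM). Blood hairpins (8 of 8 with reads) followed the tables instead, at 6520 and 1229 RPM (original cross) against 11186 and 1136 RPM (extra cross). Of the neuronal list, mir-7-1 and mir-7-2 had no entry under these names, so their level is not known here. Hairpin mir-124-1 was at or below 0.396 RPM, and with mir-9-1 the list summed to at most 4.49 RPM. Other numbered copies of mir-124 and mir-9 were not in the list, so the sum can miss their reads. The part of these cells in the values of the cluster was not tested.

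**Figure D4:**
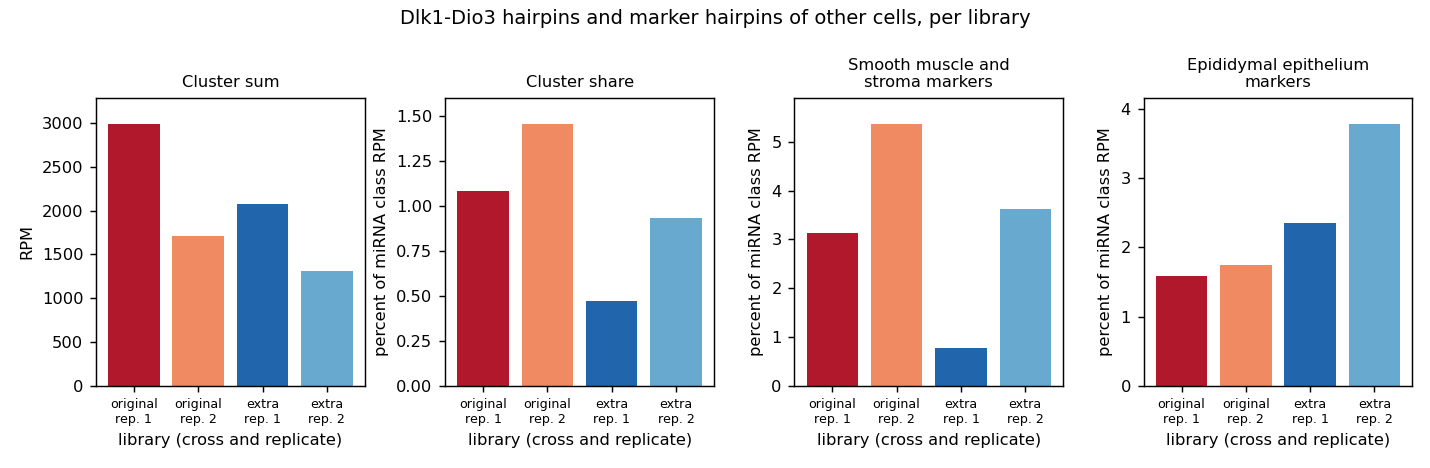
Bars from 0 give, for each of the 4 libraries, the summed RPM of the 40 hairpins, their percent of the miRNA class, and the percent of the class held by smooth muscle and stroma markers and by epididymal epithelium markers. The cluster share is lower in both extra-cross libraries (0.471% and 0.935%) than in both original-cross libraries (1.08% and 1.45%), whereas the smooth muscle and stroma shares overlap between the crosses (3.13% in original-cross replicate 1 against 3.63% in extra-cross replicate 2).

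The makeup of the cluster, each hairpin as a percent of the summed cluster reads, differed more between replicates of a cross than between the crosses of a table in these 4 libraries. Between the libraries of 1 table, 6.43% and 6.97% of the cluster would have to be reassigned to make them equal, whereas between replicates of 1 cross it was 10.6% in the original and 11.1% in the extra cross. Hairpin mir-434 followed the table, with 37.8% and 38.2% of the cluster in the replicate 1 libraries and 27.9% and 27.8% in the replicate 2 libraries. Hairpin mir-136 made up 2.33% and 2.91% in the original cross and 3.75% and 6.36% in the extra cross. The share of mir-381 was 3.70% and 4.21% against 4.94% and 5.03%. For mir-127 it was 29.0% and 32.7% against 24.2% and 28.9%, where the original-cross replicate 1 and extra-cross replicate 2 values were almost equal. A share within the cluster does not depend on how a library was scaled, but one share falls when another rises.

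**Figure D5:**
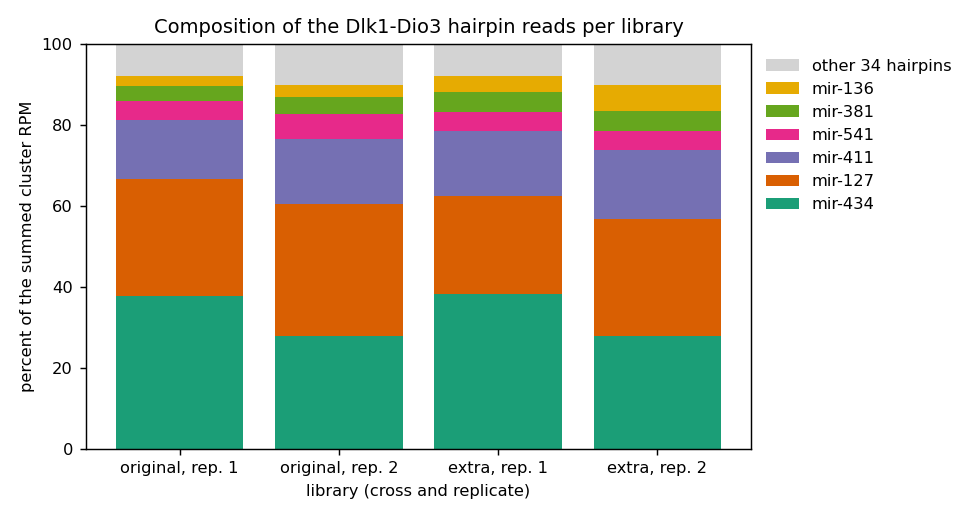
Stacked bars give the percent of the summed cluster RPM held by the 6 most abundant hairpins and by the other 34 in each library. The mir-434 part is larger in both replicate 1 libraries (37.8% and 38.2%) than in both replicate 2 libraries (27.9% and 27.8%), and the mir-136 part is larger in both extra-cross libraries (3.75% and 6.36%).

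Fragments of other transcripts of the domain were rare. The libraries held size-selected small RNA, so these values do not give the level of whole transcripts. Of 103 genes that RefSeq places from Dlk1 to Dio3, 13 had an entry in the RefSeq class of the tables. The 103 include 61 microRNA genes, none of which had an entry in that class. Original-cross replicate 1 was left out there, since its RefSeq values sum to 7926 RPM against 131739 to 155300 RPM in the other libraries. Meg3 had 8.42 RPM in original-cross replicate 2 and 7.70 and 5.94 RPM in extra-cross replicates 1 and 2. Rian had 5.05 RPM in original-cross replicate 2, was listed at 0 in extra-cross replicate 1 and had 1.90 RPM in extra-cross replicate 2. Rtl1 had 0.281, 0.321 and 0.594 RPM, Dlk1 had at most 1.12 RPM, and Dio3 at most 0.561 RPM. For Mirg there was no entry, so its level is not known here. The 5 small nucleolar RNA genes of the locus with an entry were each at or below 0.642 RPM.

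Most other microRNA hairpins of the locus were also low. Besides mir-3071, only mir-1247, which lies beside Dio3 on the minus strand, passed 10 RPM on average, with 60.04 and 9.54 RPM (original cross) against 28.2 and 7.37 RPM (extra cross). Hairpins mir-666 and mir-1193 averaged 2.04 and 1.40 RPM. Hairpins mir-673, mir-3072, mir-134, mir-758, mir-453 and mir-1906-1 averaged below 1 RPM.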

How the data were processed

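Small RNA of 4 sperm libraries, 1 per mouse, was size-selected on a gel and built into libraries with a TruSeq small RNA kit, per the labels' protocols. The submitters' processing notes name CASAVA 1.8.2 and Bowtie 1.1.2 with no role; for trimming, annotation and multiple matches, the method is not given in the sources used here. Units are the deposited RPM, scaled by the authors, per the file headers; which reads form the total is not stated. Hairpins missing from a table were set to 0 there. Only 67.6% of miRNA values of at most 20 reads lay within 0.02 of a whole number, so counts were not recovered, and limma 3.58.1 (R 4.3.3, variance trend, cross as the only term) was run on log2(RPM + 1) for features whose mean reached 10 RPM, adjusted over all features tested. Read numbers are RPM divided by the commonest miRNA value, and they cover counting error only. Members with a mean of at least 1 RPM are named with values, mir-1247 was added after its values were seen, and the members and lists were chosen with earlier results of these data known. Alternatives were other pseudocounts, minimums and scalings, the replicate number as a term, and leaving out each library. Tables were handled with Python 3.11.15, pandas 2.3.3, numpy 2.4.6, scipy 1.17.1 and matplotlib 3.10.9.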

Additional observations from a re-analysis of the deposited data

How the results depend on the processing

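No member passed under any alternative run. Over all features the count called went from 0 to 171 with a replicate block, the replicate number as a term, and stayed 0 otherwise. Same-numbered libraries deviated together (correlation 0.87 over 760 features), but with 2 numbers this does not establish pairs. The median of the tested members was -0.0018 under median-ratio scaling, which moved the median of all features from -0.12 to 0.20; it was -0.46 after rescaling to the 5 classes and -0.79 with the miRNA class scaled on its own. The gap between this median and that of the other hairpins was -0.54 to -0.55 under these scalings, which move all hairpins of a library nearly alike; without 1 library it ranged from -0.89 (without extra-cross replicate 2) to -0.097 (without extra-cross replicate 1). Without 1 library the median ranged from -0.63 (without original-cross replicate 2) to 0.0064 (without original-cross replicate 1, where 9 members stayed over the minimum); leaving out a library lets the difference between tables enter. Median-ratio scaling turned mir-381 (0.21), mir-300 (0.052) and mir-369 (0.26) positive, and the miRNA class scaled on its own turned mir-136 (-0.0087) and mir-341 (-0.28) negative. With 1 library left out, values ranged from -1.07 to 0.18 for mir-434, -0.65 to 0.0064 for mir-411, -0.43 to 0.20 for mir-381, -0.12 to 0.039 for mir-369, -0.44 to 0.21 for mir-341, -0.99 to -0.35 for mir-127, -1.01 to -0.27 for mir-541, -1.19 to -0.44 for mir-431, -0.63 to -0.12 for mir-410, -0.46 to -0.051 for mir-300 and 0.21 to 0.69 for mir-136. The ranges of mir-341 and mir-431 lack the run without original-cross replicate 1, where both fell below the minimum. The cause of these shifts was not tested. The summed RPM and the class share kept their direction under every alternative run for them, but not their size: without 1 library the log2 ratio of the sum ranged from -0.84 (without extra-cross replicate 1) to -0.0087 (without original-cross replicate 1), and that of the share (-0.85 with all libraries) from -1.43 (without extra-cross replicate 2) to -0.44 (without extra-cross replicate 1). Depth limits the hairpins below 10 RPM most in original-cross replicate 1.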
